A study of Mus musculus with 60 samples.

Results

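Whole blood transcriptomes were compared across a single dose step of BIO 300, 100 against 50 mg/kg, on Day 1, which was 48 h after the last dose. The members were chosen by their labels as the 6 unirradiated Day 1 mice of the medium dose (animals 37 to 42, 100 mg/kg) and the 6 of the low dose (animals 31 to 36, 50 mg/kg), so the step holds 12 of the 60 mice in the series, which form 10 groups of 6. The labels call the doses low and medium, and the study's methods give them in mg/kg. All 12 were male CD2F1 mice, 5 to 6 weeks old when purchased and housed 3 to a cage, and none was irradiated. BIO 300 is an oral dispersion of synthetic genistein, a soy isoflavone that binds estrogen receptor β, and each mouse received it by gavage 2 times a day for 6 days, 12 doses in all. Blood was drawn from the inferior vena cava at a terminal bleed, so each mouse gave 1 library. The p-values measure the spread between these mice, and cage, dosing order and sequencing batch were not in the labels and cannot be told apart from dose. Vehicle mice were on neither side of the step. They entered only beside it, with the 6 mice given 200 mg/kg, as did 12 other mice given the same 50 and 100 mg/kg doses and bled on Day 0, when 24 h had passed since dosing ended.

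Whole blood RNA comes from reticulocytes, platelets and leukocytes. Reticulocytes and platelets have no nucleus and carry RNA made earlier in marrow precursors, mostly for globins, haem synthesis and the platelet surface and granules, whereas lymphocytes and monocytes are nucleated and keep transcribing. A bulk library reports the share each source contributes to the RNA that was sequenced. Fewer cells of a type and less RNA per cell therefore cannot be told apart in any result here.

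The step was large in gene number. Of 23011 genes with at least 10 counts over the 12 mice, 10653 were DEGs (adjusted p under 0.05 by edgeR's quasi-likelihood test with Benjamini-Hochberg adjustment and an absolute log2 fold change over 1), which is 46.3% of genes tested. Expression was higher at 100 mg/kg for 4535 genes (19.7%) and lower for 6118 (26.6%). The values of the 6 mice at one dose did not overlap those at the other for 2721 of the higher and 4005 of the lower DEGs, and this was so for 38.9% of all genes tested. Where a DEG reached a group mean of 10 CPM (read counts scaled to a common library size), the balance was the other way, with 1943 higher and 723 lower. The lower DEGs were mostly scarce transcripts, with a median level of 0.684 CPM at 50 mg/kg, and 936 of them had no count in any 100 mg/kg mouse.

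The number and balance of calls depended on scaling. CPM values here are scaled with TMM, which centres most genes, and the TMM factors ran from 1.01 to 1.84 for the lower dose and from 0.599 to 0.829 for the higher. With library totals in place of TMM the median log2 fold change of all genes moved from -0.28 to -1.35, a shift of -1.07. The split then went from 4535 higher and 6118 lower to 1427 higher and 12329 lower, or from 42.6% to 10.4% higher. All 6118 lower DEGs and 1427 of the higher DEGs were called with either scaling, and none of the other 3108 higher DEGs was called lower with totals. Library totals ran from 21247249 to 30445343 counts at 50 mg/kg and from 17187608 to 45589415 at 100 mg/kg, and the mean difference of 2493000 did not exceed the spread (2-sided exact permutation p = 0.597). The 100 mg/kg libraries nevertheless held fewer genes with a count (18337 to 20941, against 21492 to 24335) and were more unlike each other, with a common biological coefficient of variation of 0.475 against 0.187.

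Platelet genes rose together. All 12 platelet markers tested were higher at 100 mg/kg, all 12 without overlap between the doses, with log2 fold changes of 2.07 or more and a median of 2.31. With library totals all 12 were still called higher (median 1.25), and all 12 stayed called when any 1 mouse was left out. The values of Ppbp (chr5:90768518-90770063, plus strand, GRCm38), the precursor of the platelet chemokine CXCL7, ran from 903 through a median of 1742 to 2355 CPM at 50 mg/kg and from 6122 through 7555 to 12590 CPM at 100 mg/kg. Every 100 mg/kg mouse therefore lay above every 50 mg/kg mouse. The group means were 1694 ± 498 and 8303 ± 2481 CPM (SD, n = 6 each), a log2 fold change of 2.29 (SE 0.33, adjusted p = 3.04e-05). Itga2b, the αIIb chain of the fibrinogen receptor, ran from 249 through 425 to 649 CPM against 1485 through 1820 to 4299 CPM, again without overlap (log2 fold change 2.28, SE 0.32, adjusted p = 2.22e-05). Its highest value was in mouse 42, which also had the highest platelet sum, 32840 CPM over the list against 14330 to 21220 CPM in the other 5. The glycoprotein Ib-IX-V complex, the von Willebrand factor receptor, was represented among others by Gp1ba (2.07), Gp5 (2.28) and Gp9 (2.34) on the log2 scale, and Pf4, platelet factor 4, by 2.32.

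The promoter windows of members of the platelet and red cell lists are shown because GATA1, a regulator of both lineages, was itself a DEG of the step. Gata1 had 29.8 against 116 CPM (log2 fold change 1.97) and was not called with totals. They come from RefSeq (GRCm38.p6), read 5′ to 3′ on the gene's strand, and stop at the base before the annotated gene model. Capitals mark the hexamer AGATAA, its relative TGATAA, the form AGATAG and the form TGATAG, read on either strand.
Ppbp, chr5:90768268-90768517, plus strand: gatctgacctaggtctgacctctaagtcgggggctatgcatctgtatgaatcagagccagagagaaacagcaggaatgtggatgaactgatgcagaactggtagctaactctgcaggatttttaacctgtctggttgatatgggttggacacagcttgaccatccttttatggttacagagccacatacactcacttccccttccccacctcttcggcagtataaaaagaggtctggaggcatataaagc
Pf4, chr5:90772185-90772434, plus strand: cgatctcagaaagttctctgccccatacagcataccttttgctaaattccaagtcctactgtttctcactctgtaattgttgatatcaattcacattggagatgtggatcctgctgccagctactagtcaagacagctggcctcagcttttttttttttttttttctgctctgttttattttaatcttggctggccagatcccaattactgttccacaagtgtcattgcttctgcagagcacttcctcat
Gp5, chr16:30310782-30311031, minus strand: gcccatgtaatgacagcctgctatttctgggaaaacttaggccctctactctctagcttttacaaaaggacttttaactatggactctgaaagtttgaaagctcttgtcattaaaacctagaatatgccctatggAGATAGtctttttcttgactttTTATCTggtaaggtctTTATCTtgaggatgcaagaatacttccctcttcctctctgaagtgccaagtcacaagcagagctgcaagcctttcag
Hbb-bs, chr7:103828097-103828178, minus strand: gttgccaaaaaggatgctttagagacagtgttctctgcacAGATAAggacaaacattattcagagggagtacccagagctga
Alas2, chrX:150547167-150547374, plus strand: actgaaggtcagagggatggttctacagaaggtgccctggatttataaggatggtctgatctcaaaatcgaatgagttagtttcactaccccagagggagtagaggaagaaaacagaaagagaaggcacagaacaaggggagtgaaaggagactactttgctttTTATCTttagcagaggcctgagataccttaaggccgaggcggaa
Gp5 held 3 such matches, starting 115, 93 and 77 bases before its start. Hbb-bs held 1 at 210 bases and Alas2 1 at 86 bases, and neither Ppbp nor Pf4 held any in these windows. Distances are to the RefSeq start, and the Hbb-bs and Alas2 stretches shown end before it because they stop at the gene model. A match in the 250 bases before a start was found for 29.7% of the 27025 genes with a window. It was found for 4 of 10 platelet, 3 of 4 haemoglobin, 3 of 6 haem synthesis, 6 of 8 red cell membrane and 3 of 6 erythroid regulator genes. Among T cell genes it was found for 2 of 9 and among B cell genes for 1 of 6. These are letter matches and were not tested as binding sites, and no list was tested against the share over all genes.

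**Figure D1:**
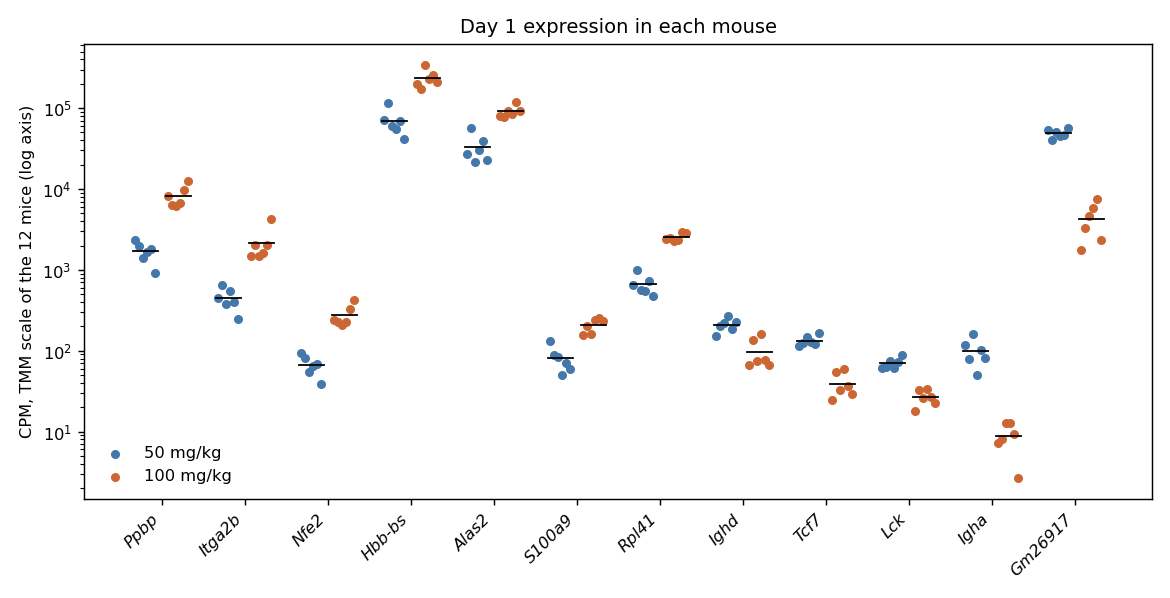
Level of 12 named genes in each of the 12 mice, in TMM-scaled CPM on a log axis, with the 50 and 100 mg/kg mice marked separately and 1 point per mouse. Bars mark group means. Ppbp, Itga2b, Nfe2, Hbb-bs, Alas2, S100a9 and Rpl41 sit higher in all 6 mice at 100 mg/kg, Tcf7, Lck, Igha and Gm26917 sit lower in all 6, and Ighd overlaps.

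Globin RNA rose as a share of the library. The study's methods describe globin depletion, so this share would be of what was left after it. The part of depletion in the rise was not tested. Hbb-bs, an adult β-globin gene, took on average 9.58% of counts in the lower and 15.96% in the higher dose group, a difference of 6.38 percentage points (2-sided exact permutation p = 0.00216, the smallest that 6 against 6 allows, adjusted p = 0.00432 over 2 library values). In CPM it ran from 41860 through 65090 to 114600 against 172700 through 218300 to 345100, without overlap. Its log2 fold change of 1.77 (SE 0.88) did not pass in the fit across genes (edgeR adjusted p = 0.0900) but passed with DESeq2 (adjusted p = 2.7e-13) and with filterByExpr (0.00174). Hba-a1 and Hba-a2, near-identical α-globin copies whose reads cannot be assigned with certainty, had log2 fold changes of 2.68 and 2.43 and passed, and Hbb-bt passed at 1.19 but not without mouse 39 (0.99). In all, 3 of 4 globin genes were called higher, 2 of them also with totals.

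Haem synthesis genes were higher under TMM. Of 8 enzymes 5 were called higher, none lower, with a median log2 fold change of 1.38, and none passed with library totals, where the median was 0.38. Urod (133 against 380 CPM), Alad (14.5 against 38.4) and Cpox (17.4 against 44.5) had log2 fold changes between 1.35 and 1.51. Alas2, which encodes the rate-limiting erythroid enzyme, ran from 21500 through 28850 to 56280 CPM against 77090 through 88350 to 118800 CPM. The doses did not overlap, yet its log2 fold change of 1.47 (SE 0.63) did not pass (adjusted p = 0.0541), while DESeq2 gave 1.36e-10. Fech, ferrochelatase, stood at the limit (log2 fold change 1.01, adjusted p = 0.0327) and lost its call when any of mice 31, 33, 34, 36, 39 or 41 was left out, at 0.90 to 0.97.

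The red cell membrane genes split. Of 12 tested, 5 were called higher, among them Rhag (1.88), Rhd (1.40), Kel (1.39) and Ank1 (1.03), while the spectrin chain Sptb (0.11) and protein 4.1, Epb41 (0.17), were among those that did not pass. The list's median of 0.74 with TMM became -0.25 with totals, where no member passed. Slc4a1, the band 3 anion exchanger, ran from 1112 through 1669 to 4662 CPM against 2154 through 2522 to 3849 CPM, so the doses overlapped (log2 fold change 0.38, SE 0.36, not past the limit, and -0.57 with totals). Epb41 ran from 4816 through 5993 to 20050 CPM against 7447 through 9199 to 13740 CPM, and the highest of all 12 was mouse 32, given 50 mg/kg.

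Transcription factors of the erythroid and megakaryocyte lineages were higher for 5 of 8 tested. Tal1 (51.2 against 220 CPM), Gfi1b (8.88 against 36.9 CPM), Nfe2 (66.8 against 275 CPM), Gata1 and Klf1 had log2 fold changes of 2.11, 2.06, 2.04, 1.97 and 1.36, and with totals Tal1 and Gfi1b alone passed. Nfe2, which drives platelet release, ran from 39.0 through 66.3 to 94.7 CPM against 207 through 234 to 422 CPM without overlap (SE 0.23, adjusted p = 3.31e-06). Lmo2 had a smaller difference, 131 ± 48 against 234 ± 47 CPM (SD, n = 6 each), under the fold limit at 0.84.

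Cell cycle genes pointed the same way under TMM. Of 16 genes, 10 were called higher and none lower, with a median of 1.49 that fell to 0.49 with totals, where none was called higher and 3 lower. Mki67, a marker of cycling cells, had means of 193 and 538 CPM (log2 fold change 1.48, SE 0.25), and Top2a 42.4 and 167 CPM (1.98, SE 0.20). The replication factors Pcna (0.03) and Mcm2 (-0.02) did not pass. Histone cluster genes, many of them near-identical copies, gave 18 higher and 1 lower of 58 tested, led among abundant members by Hist1h1c, 195 against 650 CPM, with a list median of 0.65 that was -0.41 with totals.

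**Figure D2:**
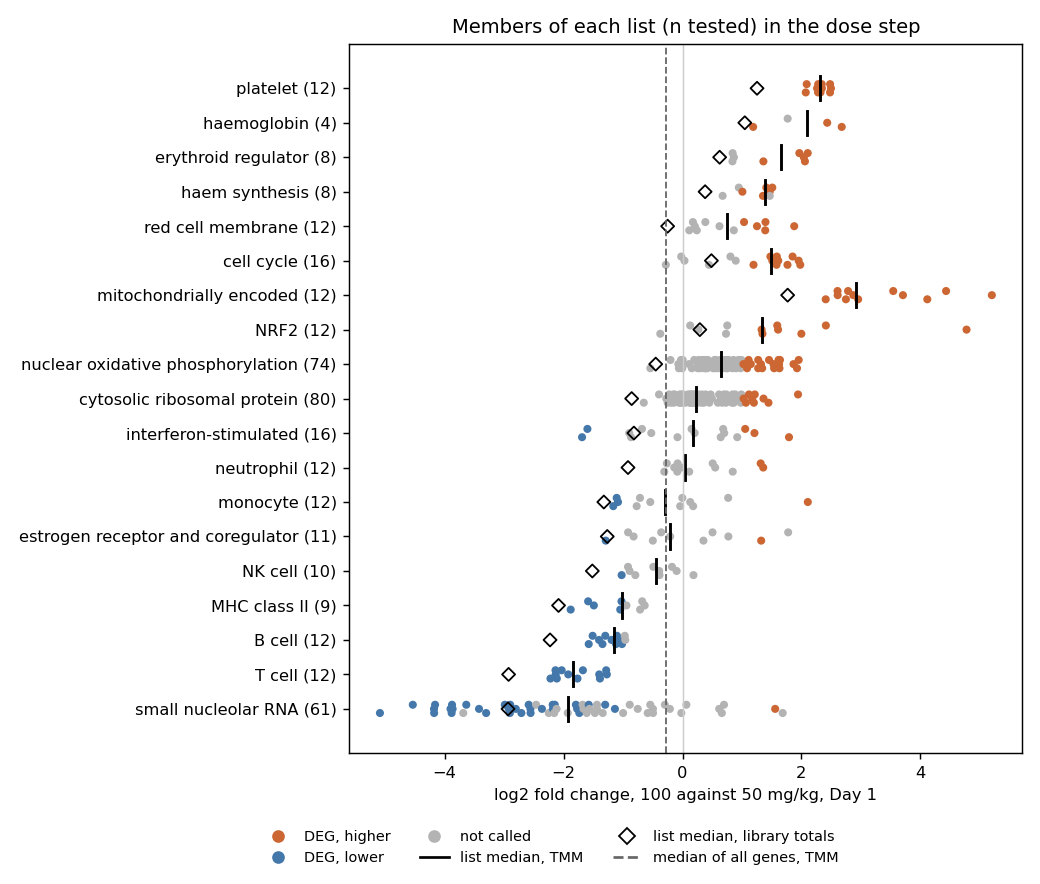
Log2 fold change of every tested member of the gene lists shown at the Day 1 step, 100 against 50 mg/kg, 1 point per gene, with the median of the list marked under TMM and under library totals. The 12 platelet genes lie at 2.07 or above, the 12 T cell genes between -2.22 and -1.27, and the red cell membrane median changes sign between the scalings.

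T cell genes fell together. All 12 T cell markers were called lower at 100 mg/kg, all 12 without overlap, with a median log2 fold change of -1.84, and all 12 were called lower with totals as well (median -2.93). Tcf7, a transcription factor of naive and memory T cells, ran from 115 through 127 to 167 CPM at 50 mg/kg and from 24.5 through 34.4 to 58.7 CPM at 100 mg/kg. The highest 100 mg/kg mouse was below the lowest 50 mg/kg mouse (log2 fold change -1.77, SE 0.21, adjusted p = 4.66e-06). Lck, the kinase of the T cell receptor, ran from 61.3 through 67.3 to 89.2 CPM against 17.9 through 26.4 to 33.6 CPM (log2 fold change -1.40, SE 0.15, adjusted p = 2.94e-06). The coreceptors Cd4 (40.0 against 9.10 CPM), Cd8a (16.9 against 3.88 CPM) and Cd8b1 (18.5 against 3.99 CPM) had log2 fold changes of -2.14, -2.13 and -2.22. All 12 remained lower without mice 37, 39 and 41, where the median was -1.58.

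B cell genes also fell. Of 12 B cell markers 10 were called lower and none higher, with a median of -1.16, and all 12 were lower with totals. The count was 8 to 12 with each mouse left out. Ighm, the immunoglobulin μ chain, ran from 267 through 346 to 427 CPM against 109 through 143 to 270 CPM, a narrow overlap (log2 fold change -1.02, SE 0.22, adjusted p = 0.00107). Its call was lost without any 1 of mice 34, 36, 37, 39, 41 or 42 (-0.91 to -0.97), with filterByExpr (-0.98) and among genes with a mean of at least 10 counts (-0.98). Ighd, the δ chain, ran from 152 through 211 to 268 CPM against 66.8 through 75.8 to 163 CPM (log2 fold change -1.10, SE 0.23, adjusted p = 0.000888). The surface molecules Cd22 (-1.58) and Cr2 (-1.51) were among the members called. Among the 100 mg/kg mice the summed B cell level was 815 and 947 CPM in mice 38 and 40 and 388 to 477 CPM in the other 4, against 983 to 1595 CPM at 50 mg/kg. Without mice 37, 39 and 41, 3 of 12 were called, and Ighm (-0.70) and Ighd (-0.77) were not.

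Igha, the immunoglobulin heavy chain of IgA made by plasma cells, was lower in all 6 mice at the higher dose. It ran from 50.0 through 92.2 to 163 CPM at 50 mg/kg and from 2.63 through 8.64 to 12.8 CPM at 100 mg/kg, without overlap. The mean was 11.3-fold higher at 50 mg/kg (log2 fold change -3.50, SE 0.34, adjusted p = 1.27e-06). Immunoglobulin variable genes, whose close copies share reads, were lower for 123 of 194 and higher for 0, and T cell receptor joining genes lower for 59 of 67 and higher for 1.

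Genes of antigen presentation on MHC class II, which B cells and monocytes express, were lower. Of 9 MHC class II genes 5 were called lower, none higher, with a median of -1.03, and all 9 were called lower with totals (median -2.09). H2-DMb1 (-1.88), H2-Ob (-1.59) and Ciita, the class II transactivator (-1.49), were the largest of them. Cd74, the invariant chain, ran from 646 through 777 to 989 CPM against 273 through 291 to 629 CPM (log2 fold change -1.05, SE 0.25, adjusted p = 0.00219), and H2-Aa from 269 through 340 to 415 CPM against 157 through 163 to 317 CPM (-0.71, under the fold limit). Mice 38 and 40 had the highest sums at 100 mg/kg, 1307 and 1320 CPM against 623 to 658 CPM in the other 4, and without mice 37, 39 and 41 the calls fell to 3 and Cd74 was at -0.69. The calls also fell to 3 without any 1 of mice 34, 37, 39, 41 or 42, where Cd74 lost its call at -0.96 to -0.98. In MHC class I the transporters Tap1 (-1.71) and Tap2 (-1.67) and the regulator Nlrc5 (-2.02) were lower, whereas B2m, the shared light chain, was higher (590 against 1644 CPM, 1.48, and 0.40 without a call with totals). Over the 9 class I genes 1 was higher and 3 were lower with TMM, and 0 and 8 with totals.

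Myeloid and NK cell genes showed few calls with TMM. Of 12 neutrophil markers S100a8 and S100a9 were higher and none lower, but 10 did not pass, and with totals 4 were called lower and none higher. S100a9, a calcium-binding alarmin, ran from 49.9 through 76.8 to 130 CPM against 156 through 215 to 254 CPM without overlap (log2 fold change 1.36, SE 0.21, adjusted p = 7.39e-05, and 0.30 without a call with totals). Csf3r, the G-CSF receptor, ran from 126 through 152 to 267 CPM against 92.5 through 157 to 217 CPM, and its -0.14 (adjusted p = 0.568) became 0.04 without mouse 31. Among 12 monocyte markers Ccr2 (-1.11), Ly6c2 (-1.17) and Cx3cr1 (-1.09) were lower, against 26.6% of all genes. F13a1, coagulation factor XIII A, which platelets also hold, was higher at 187 against 807 CPM (2.11). Lyz2 went the same way as F13a1 under the fold limit, at 640 against 1089 CPM (0.77, edgeR adjusted p = 0.0059, and -0.31 with totals). The monocyte list had a median log2 fold change of -0.29. Its summed level, most of it from Lyz2 and F13a1, was 782 to 1473 CPM at 50 mg/kg and 1584 to 3160 CPM at 100 mg/kg. Scaled by totals these sums overlapped, at 1075 to 2053 and 953 to 1981 CPM. With totals 1 monocyte gene was higher and 8 were lower (median -1.32), and without mice 37, 39 and 41 the TMM count was 1 higher and 1 lower. Of 10 NK cell genes Klrk1 alone passed (-1.02), and Gzma, granzyme A, ran from 34.0 through 39.7 to 57.3 CPM against 33.9 through 41.2 to 45.7 CPM (-0.10, adjusted p = 0.556). With totals 9 of the 10 NK cell genes were called lower (median -1.52). With each mouse left out the NK count ran from 0 (without mouse 31, 33, 37 or 41) to 3 (without mouse 38 or 42).

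Interferon-stimulated genes did not move as a group. Of 16, Ifit2 (1.79), Isg15 (1.21) and Ifit1 (1.05) were called higher and Oas2 (-1.69) and Mx1 (-1.60) lower, with a list median of 0.18 that became -0.82 with totals. Ifit2 ran from 24.1 through 38.0 to 49.0 CPM against 97.1 through 118 to 189 CPM without overlap (SE 0.18, adjusted p = 1.72e-06). Rsad2, viperin, was below the fold limit at 0.92, and mouse 32 held its highest 50 mg/kg value, 5132 CPM against a median of 1807. Without mouse 32 it passed at 1.28.

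The estrogen receptor genes were weakly expressed and showed no call with TMM. Esr1, estrogen receptor α, ran from 1.59 through 1.64 to 2.02 CPM against 0.630 through 1.03 to 3.86 CPM (log2 fold change -0.21, SE 0.39, adjusted p = 0.651), and the highest value was mouse 37. With totals Esr1 was called lower (-1.27, edgeR adjusted p = 0.0155). Esr2, estrogen receptor β, ran from 0 through 0.0240 to 0.0656 CPM against 0 through 0.0874 to 0.298 CPM, and its log2 fold change of 1.78 (SE 0.90) did not pass (adjusted p = 0.0952). Against vehicle, in comparisons that share mice with the step, Esr2 had 0.51 at 50 mg/kg (adjusted p = 0.803) and 2.27 at 100 mg/kg (adjusted p = 0.0336). At 200 mg/kg, a group outside the step, it had 2.40 (adjusted p = 0.0380). Among the 11 receptor and coregulator genes tested, 1 was called higher and 1 lower, and the higher was the coactivator Ncoa1 (52.8 against 132 CPM, 1.32, SE 0.20). The list's median was -0.21, against -0.28 over all genes. With totals 0 of the list were called higher and 4 lower, with a median of -1.27 against -1.35 over all genes. Ncor1 (0.50) and Ncoa2 (0.35) were under the fold limit, and both were negative with totals (-0.56 and -0.70).

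Nuclear genes of oxidative phosphorylation were called higher for 18 of 74 and lower for none, and cytosolic ribosomal protein genes for 9 of 80 and none, against 19.7% of all genes called higher. Atp5b, the ATP synthase β chain, ran from 372 through 468 to 841 CPM against 904 through 1083 to 1533 CPM (log2 fold change 1.11, SE 0.23). Cox8a ran from 50.9 through 60.6 to 91.7 CPM against 151 through 196 to 222 CPM (1.53, SE 0.16), and Rpl41 from 473 through 604 to 1003 CPM against 2271 through 2414 to 2947 CPM (1.94, SE 0.22). Neither these nor Rplp0 (1.45) passed with totals, and the 2 lists' medians of 0.65 and 0.22 became -0.45 and -0.86, with 9 and 21 genes called lower and none higher. Without mice 37, 39 and 41 the oxidative phosphorylation list gave 12 higher and 1 lower, with a median of 0.25.

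Genes encoded in the mitochondrial genome behaved otherwise. All 12 tested were higher, with a median of 2.91, and 11 were still called with totals (median 1.77). mt-Co1, a core subunit of cytochrome oxidase, had means of 1460 and 7752 CPM (log2 fold change 2.41, SE 0.29), and mt-Cytb 235 and 1579 CPM (2.75, SE 0.32). All 18 mitochondrial tRNA genes were higher, and mt-Tl1 ran from 1.08 through 1.49 to 2.81 CPM against 6.40 through 12.4 to 24.7 CPM (3.00, SE 0.32). Nuclear copies of mitochondrial sequence can share these reads.

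**Figure D3:**
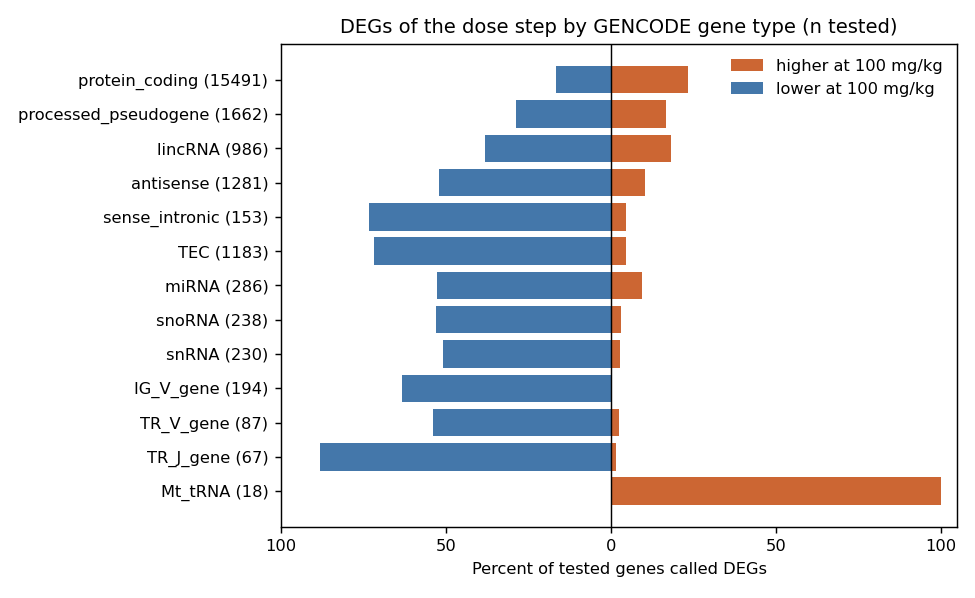
Percent of tested genes called higher and lower with TMM at 100 against 50 mg/kg, by GENCODE gene type, with the number tested beside each type. Protein-coding genes were called higher for 23.5% and lower for 16.7%, while TEC, antisense and sense intronic genes were called lower for 71.7%, 52.1% and 73.2%.

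With TMM the balance of calls differed by gene type. Of 15491 protein-coding genes 3645 were higher and 2583 lower, with a median of 0.03. Of 1281 antisense genes 131 were higher and 667 lower (median -1.73), and of 1183 TEC loci, which are unspliced transcripts awaiting experimental support, 55 were higher and 848 lower (median -2.78). With totals, lower calls outnumbered higher calls in each of these types, at 1183 higher and 7474 lower for protein-coding genes (median -1.05), 43 and 873 for antisense genes and 11 and 990 for TEC loci. Small nuclear RNA genes were lower for 117 of 230 and small nucleolar RNA genes for 126 of 238. The strand setting of the counting is not given in the sources used here, so an antisense or intronic gene cannot be told apart from the gene it overlaps.

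Beside Igha, the lower DEGs with the largest fold among those of at least 10 CPM and no overlap were 3 noncoding loci. Gm26917 (chr17:39843013-39846341, plus strand, annotated as lincRNA) ran from 40310 through 48810 to 56900 CPM at 50 mg/kg and from 1744 through 3995 to 7580 CPM at 100 mg/kg. Its average share of counts was 7.36% at the lower and 0.287% at the higher dose (log2 fold change -3.53, SE 0.56, adjusted p = 7.60e-05). The next gene on the same strand, Gm42418 (chr17:39846958-39848788), was higher, at 20080 CPM against 69740 CPM for the higher dose (1.80, adjusted p = 0.0224). RefSeq gives Gm42418 as a synonym of an 18S ribosomal RNA-related locus. The part of ribosomal RNA, or of its depletion, in the values of Gm26917 and Gm42418 was not tested. A130071D04Rik (18.5 ± 3.4 against 1.24 ± 0.79 CPM, SD, n = 6 each, -3.90) and Gm38244 (12.2 ± 2.2 against 0.886 ± 0.680 CPM, -3.78) did not overlap between the doses. Neat1 (-1.24) and Mir142hg (-3.01) were also lower, Malat1 did not pass (-0.63), and Gas5 was higher (1.12) without a call with totals.

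Markers of tissues outside blood were high in some libraries. Of 12 hepatocyte genes all 12 were called higher with a median of 6.11, but the summed level reached 3453 CPM for mouse 37 and 227 for mouse 39, against 0.447 to 19.6 CPM in the other 4 and 0.302 to 28.7 CPM at 50 mg/kg. Scaled over all 4 Day 1 groups together, the hepatocyte sum reached 1604 CPM in a vehicle mouse and 1109 CPM in a mouse given 200 mg/kg, beside 3610 CPM at 100 mg/kg. DESeq2 gave an adjusted p for 5 of the 12 and called 2. Without mouse 37, 6 of 12 were called, and without mice 37, 39 and 41 none was higher and 1 was lower. Alb, albumin, ran from 0 through 0.0804 to 13.9 CPM against 0 through 4.36 to 1460 CPM, and its 6.33 (adjusted p = 0.0177) became 2.67 without a call when mouse 37 was left out. Igf1, Aldh1l1 and Sardh, 3 of the 4 largest rises named by the rule for abundant DEGs, had their top values in mouse 37 (70.0, 77.7 and 52.8 CPM), and Igf1 was at 1.76 (adjusted p = 0.0508) without mice 37, 39 and 41. Adipocyte genes, called higher for 7 of 8, reached a sum of 238 CPM for mouse 39 and 127 for mouse 41 and at most 23.7 CPM elsewhere, and 3 of 8 were called with totals. Vessel wall genes, called for 6 of 10 (2 with totals), summed to 34.2 to 62.3 CPM at 100 mg/kg against 7.93 to 13.2 CPM, without overlap, with Tie1 (2.35) and Kdr (2.35) leading. The part of these tissues in the other results was not tested beyond leaving out mice 37, 39 and 41, which gave 8122 DEGs, 3163 higher and 4959 lower, and kept all 12 platelet calls.

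**Figure D4:**
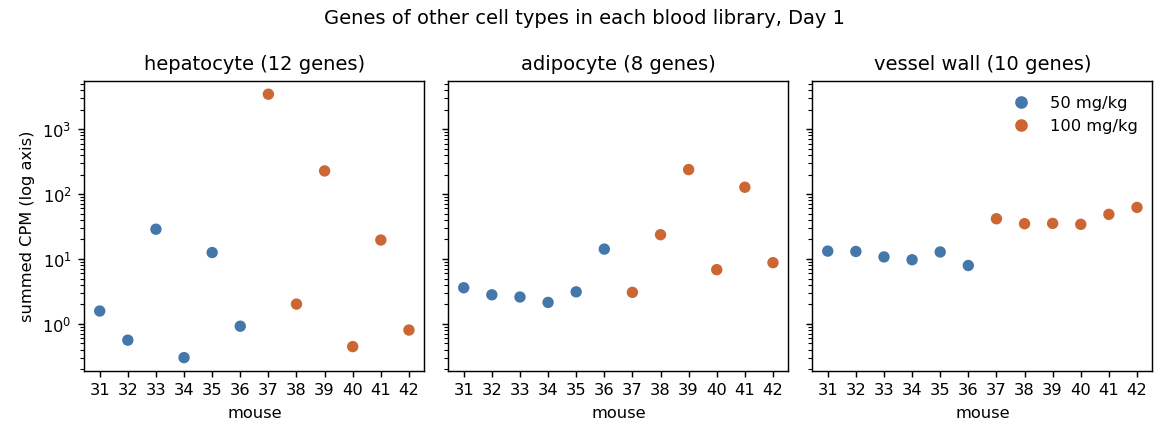
Summed CPM of hepatocyte, adipocyte and vessel wall marker genes in each of the 12 mice, on a log axis. Mouse 37 stands at 3453 CPM for hepatocyte genes, mice 39 and 41 at 238 and 127 CPM for adipocyte genes, and the vessel wall sums do not overlap between the doses.

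The same dose step gave no DEG on Day 0. In the 12 other mice bled 24 h earlier, 0 of 24323 genes were DEGs by edgeR (0%), with 5455 genes at an unadjusted p under 0.05 and a smallest adjusted p of 0.0544, whereas DESeq2 called 1142, of which 1140 were higher. Genes called higher on Day 1 had a median Day 0 log2 fold change of 0.87 against 1.92 on Day 1, and genes called lower -0.20 against -2.39. The Day 0 step was not placed against vehicle here. Against Day 0 vehicle mice the paper lists many lower DEGs for the lower dose and almost none for the higher dose. The Day 0 step, and its difference from Day 1, therefore cannot be read as a response to the higher dose alone. The difference between the steps was tested directly over the 24 mice, and 6642 of 25845 genes (25.7%) passed, 1106 with a higher and 5536 with a lower step on Day 1. With totals 348 and 7553 passed. Among step DEGs 1066 higher and 5221 lower genes had a larger Day 1 step in the same direction, and 0 had the reverse. The step DEGs were chosen by their Day 1 values, which this test uses again. That choice favours a larger Day 1 step, both in these counts and in the medians above. In this test all 12 T cell genes passed as lower on Day 1, with 6 of 12 B cell genes, 8 of 12 platelet genes passed as higher and 11 mitochondrially encoded genes as higher. Red cell membrane genes went against these, with a median of 1.69 on Day 0 and 0.74 on Day 1, and 4 of 12 passed as a smaller step on Day 1. With totals in this test 12 T cell, 12 B cell and 7 red cell membrane genes passed as lower on Day 1, and 4 platelet and 11 mitochondrially encoded genes as higher.

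Vehicle mice placed the step within the dose series. On Day 1 the vehicle mean was nearer the 50 than the 100 mg/kg mean for 4085 of 4535 higher and 6035 of 6118 lower DEGs. Against vehicle, which shares the dosed mice with the step, the platelet list had a median log2 fold change of 0.78 for the lower and 3.08 for the higher dose, and the T cell list 0.03 and -1.86. The 200 mg/kg mean lay beyond the 50 mg/kg mean in the direction of the step for 4458 higher and 6085 lower DEGs, but beyond the 100 mg/kg mean for 1732 and 2206. The DEGs were chosen by their 50 and 100 mg/kg values. That choice favours 200 mg/kg means past the 50 mg/kg mean and short of the 100 mg/kg mean. These counts therefore cannot show whether the response levelled off above 100 mg/kg.

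The 200 mg/kg group against vehicle shares no mouse with the step. It gave 11241 DEGs of 23513 genes tested (47.8%), and 8099 genes were DEGs in both with the same direction, which is 76.0% of the step list and 72.0% of the 200 mg/kg list, while 4 were opposite. By direction 3092 genes were higher in both (68.2% of the higher DEGs) and 5007 lower in both (81.8% of the lower DEGs). The log2 fold changes correlated at r = 0.74 across 22413 genes, which are not independent replicates. As in the step, the libraries of the higher dose held fewer genes with a count, 17162 to 19361 at 200 mg/kg against 24167 to 25243 in vehicle mice. Cage, dosing order and sequencing batch cannot be told apart from dose in this comparison either. Platelet genes were higher for 12 of 12 there and T cell genes lower for 11 of 12, and Ppbp had 2.91, Tcf7 -1.94 and Gm26917 -2.83 against 2.29, -1.77 and -3.53 for the step. Mitochondrially encoded genes were higher for 7 of 11 there (median 1.28), but with totals for 3 of 11 (median -0.24). Sardh was higher there too (2.21, adjusted p = 0.00295), while Igf1 (0.23) and Aldh1l1 (1.00) did not pass. Of the red cell membrane genes 12 of 12 were called higher at 200 mg/kg against vehicle and 5 of 12 for the step, a difference that was not tested, and with totals none was called in either (medians 0.22 and -0.25).

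**Figure D5:**
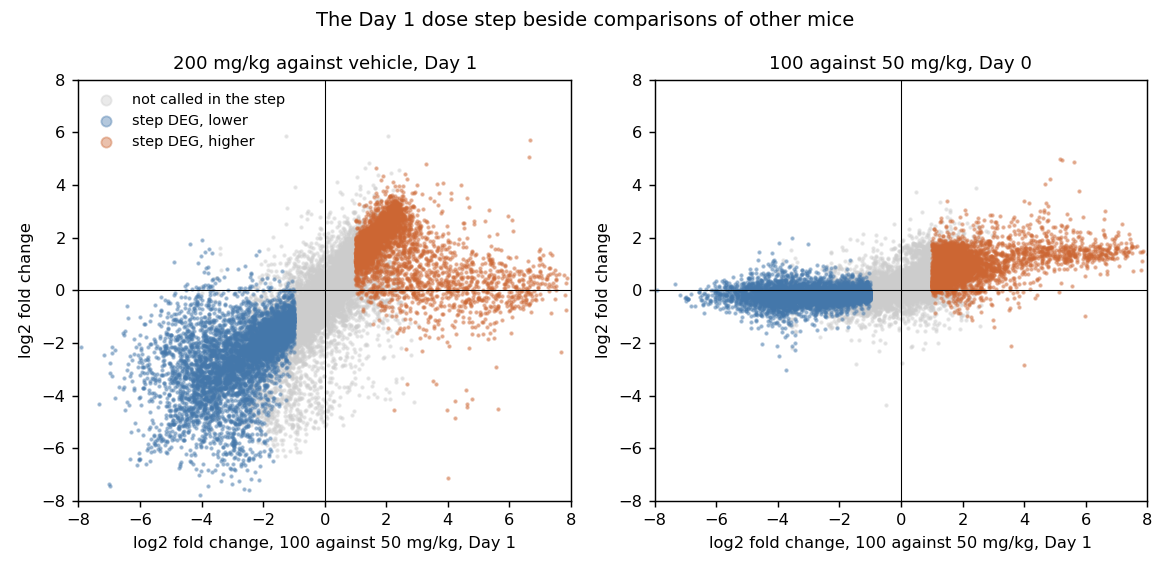
Log2 fold change of each gene at the Day 1 step (x axis) against the 200 mg/kg group relative to vehicle on Day 1 and against the same step on Day 0 (y axes), 1 point per gene, with 12 genes outside the axes in each panel. Most step DEGs keep their sign at 200 mg/kg (r = 0.74) apart from a band of strongly higher genes near 0, and the genes lower on Day 1 lie near 0 on Day 0 (median -0.20).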

How the data were processed

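Per the labels and the study's methods, the authors used Trimmomatic 0.36 for trimming and STAR 2.5.2b for alignment to GRCm38, and deposited raw counts per gene from Subread 1.5.2. The annotation release and strand setting are not given in the sources used here. The methods describe stranded globin and ribosomal RNA depletion, whereas the labels give polyA selection, and the RNA integrity number was at least 6.1. The 2 groups lie in different count tables and were joined on the 49315 gene IDs, and 18 repeated columns of a mouse were identical. Symbols and gene types come from GENCODE M21. The deposited count tables of irradiated mice were not used here, nor were the authors' own comparison tables of fold changes, p-values and normalized values.

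Counts were fitted in edgeR 4.0.16 (R 4.3.3) with TMM and the quasi-likelihood test, in the 12 mice, for genes with at least 10 summed counts. DESeq2 1.42.0 was an alternative, and the code was tested on simulated data. Totals per library, 17187608 to 45589415 counts, set the precision.

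The mice, gene lists and named-gene rule were chosen with earlier results of these data known. The rule took the 2 members with the highest mean CPM in each of 15 lists, Esr1 and Esr2, the 4 DEGs with the largest fold in each direction having at least 10 CPM and no overlap, the 3 genes with most counts, and Alb. Other list members were named as examples after their values were seen, and some members are counted but not reported here by name.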

Additional observations from a re-analysis of the deposited data

Results flagged for a closer look

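Within the 6 mice of each dose, 13 of 86 groups of values held a mouse far from the other 5 by Dixon's gap test, which flags about 1 in 20 groups by chance. Mouse 37 accounted for 5 of them at 100 mg/kg, with Alb at 1460 CPM (the other 5 at most 97.6), Aldh1l1 at 77.7, Igf1 at 70.0, Sardh at 52.8 and Esr1 at 3.86 CPM. Mouse 42 stood high for Itga2b (4299 CPM), F13a1 (1456 CPM) and Ncoa2 (167 CPM), and mouse 38 for Ccl5 (40.6 CPM). At 50 mg/kg mouse 32 stood high for Epb41 (20050 CPM) and Ncor1 (163 CPM), mouse 31 for Csf3r (267 CPM) and mouse 33 for Alb (13.9 CPM). What lies behind these values was not tested.

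Of the 41 named genes, 11 had a step on Day 1 that differed from the Day 0 step in the test of the difference itself (edgeR, 24 mice, Benjamini-Hochberg). The difference, as log2 of the Day 1 step minus the Day 0 step, was -3.96 for Igha (adjusted p = 1.01e-05), -3.66 for A130071D04Rik (3.5e-08), -3.53 for Gm38244 (1.02e-06) and -3.37 for Gm26917 (0.00535). It was -1.46 for Tcf7 (0.000227), -1.25 for Lck (0.000137) and, from a Day 0 step of 1.81 and a Day 1 step of 0.38, -1.50 for Slc4a1 (0.0370). On the other side it was 2.16 for mt-Tl1 (0.000127), 1.20 for S100a9 (0.00067), 1.14 for F13a1 (0.0176) and 1.10 for Ifit2 (0.00239). The Day 0 steps of these genes were not placed against vehicle.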

How the results depend on the processing

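The 10653 DEGs became 6294 with filterByExpr, where 14267 genes were tested, and, in alternatives chosen after seeing the data, 6228 in protein-coding genes and 6980 in genes with a mean of at least 10 counts. DESeq2, the median-ratio factors, no filter, the animal-number covariate and the 24-mouse fit gave 9531 to 11133. Leaving out each mouse gave 9748 to 10822 DEGs, and dropping mice 37 and 41 or 37, 39 and 41 (also chosen after seeing the data) gave 8781 and 8122. The Day 0 count of 0 became 1142 with DESeq2, 737 with filterByExpr and 932 with the covariate, and ran from 0 to 1315 with each mouse left out (757 without mouse 2, 1059 without mouse 7, 1315 without mouse 9). The test of the difference between days gave 5915 to 7225 with each mouse left out. Genes shared with 200 mg/kg against vehicle numbered 12289 with library totals. The difference in total counts was -3737000 between medians. With totals the sign turned for Epb41 (-0.77), Slc4a1 (-0.57), Lmo2 (-0.18), Lyz2 (-0.31), Ccl5 (-0.855), Rsad2 (-0.039), Ncor1 (-0.56) and Ncoa2 (-0.70), the scaling itself moving the median of all genes by -1.07. Csf3r ran from -0.27 to 0.041 with each mouse left out (0.041 without mouse 31) and was at 0.0068 without mice 37 and 41 and 0.11 without 37, 39 and 41, where Gzma was at 0.060 and Alb at -5.51. The cause of the other changes was not tested. No paired analysis was possible because each animal number belongs to 1 group. The 12 platelet and 12 T cell calls held with each mouse left out.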

Other observations

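Genes of the NRF2 antioxidant response were called higher for 7 of 12 tested and lower for none at 100 against 50 mg/kg, with a median log2 fold change of 1.34. Members ran from -0.37 to 4.78, the highest not being among those named here, and 19.7% of all genes were called higher. Srxn1, sulfiredoxin, had means of 47.4 and 252 CPM (2.41, SE 0.25), and Gsr, glutathione reductase, 37.3 and 149 CPM (2.00, SE 0.21). Gclc (1.59) and Gclm (1.34), the subunits of the enzyme that starts glutathione synthesis, and Taldo1 (1.61) and G6pdx (1.33) of the pentose phosphate pathway were called, while Nqo1 (0.75), Hmox1 (0.27) and Txnrd1 (0.13) were not. With library totals 2 were called higher and 1 lower, with a median of 0.29. Without mice 37, 39 and 41 the count was again 7.

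Genes of Toll-like receptors and of their downstream signalling were lower for 3 of 13 tested and higher for none, against 26.6% of all genes called lower. Their median was -0.88, and the 3 were Tlr9 (12.3 against 3.11 CPM, -2.01), Tlr1 (19.5 against 6.26 CPM, -1.65) and Tlr6 (11.0 against 3.59 CPM, -1.61). With totals 11 of the 13 were called lower, as were 12329 of all 23011 genes. Of 12 p53 target genes Phlda3 alone was called (2.82 against 15.7 CPM, 2.48), and Cdkn1a (0.48) and Mdm2 (0.52) were not, and with totals 1 was higher and 4 lower. Among clock genes Npas2 (2.69), Nr1d1 (1.57) and Per3 (1.01) were higher and Arntl lower (-1.57) of 13. Over all genes 19.7% were called higher and 26.6% lower. With totals 1 clock gene was higher and 8 lower. Without mouse 37 the count was 1 higher and 3 lower, and 1 was higher also without mouse 32, 33, 34, 35 or 39. The summed clock gene level was 110 CPM in mouse 37, 47.7 to 65.8 CPM in the other 5 at 100 mg/kg and 76.8 to 89.1 CPM at 50 mg/kg. None of 11 heat shock genes was called with TMM, and 8 were called lower with totals. Hspa5 (-0.61), Dnajb1 (-0.69) and Hsp90ab1 (-0.35) passed the adjusted p limit of edgeR's test but not the fold limit, and Hspb1 (1.05, adjusted p = 0.097) passed the fold limit but not the p limit.

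The small nucleolar RNA list was lower for 31 of 61 tested and higher for 1, with a median of -1.93 (0 higher and 51 lower with totals), and their summed level was 25.3 to 33.0 CPM at 50 mg/kg and 9.28 to 24.3 CPM at 100 mg/kg. Proteasome genes were higher for 4 of 38, against 19.7% of all genes, with a median of -0.04. With totals 1 proteasome gene was higher and 21 were lower. Of 12 immediate early genes Fosb (-1.11) and Egr2 (-1.25) were lower, against 26.6% of all genes. The count was 1 without mouse 31, 39 or 41, and 10 were lower with totals. Of 10 eosinophil and basophil genes Gata2, which megakaryocytes also express, was higher (1.83) and Cd200r3 lower (-1.19), against 19.7% and 26.6% of all genes. With totals 8 of these 10 were lower and none higher.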
